A study of Sus scrofa with 8 samples.

Results

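Splicing factors and RNA-binding proteins were represented in porcine lung by 67 array probes for 39 genes, out of 34406 probes detected well above background on 1 or more of 8 arrays. Members were the probes whose gene symbol begins with SF3, SRSF, SFRS, HNRNP, SNRP, PRPF, U2AF, LSM or RBM. The rule itself used no expression value beyond the detection filter, but 23 symbols came from a table ordered by a score and 15 from tables ordered or chosen by p-values of these same arrays, so that measured values bore on which probes could be members. Of these probes, 30 have a RefSeq transcript as their target and 37 another transcript. Most of the families had several members, with 19 SRSF, 15 HNRNP, 11 RBM, 6 SF3, 6 SNRP, 6 PRPF and 3 LSM probes and a single U2AF probe, and no SFRS symbol was present.

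Splicing removes introns from precursor mRNA on the spliceosome, a large machine built on small nuclear RNAs. The U1 and U2 particles mark the start of the intron and its branch point, Sm and LSm proteins form rings on the small nuclear RNAs, and PRPF proteins help to assemble and drive the catalytic machine. Around this core, SR proteins (SRSF genes) bind exons and mostly promote their inclusion, hnRNPs bind nascent transcripts and often repress exons, and RBM proteins include regulators of splicing, mRNA stability and export. Many SR and hnRNP genes make transcripts that hold a premature stop codon and are degraded, so probes of 1 gene can report different transcripts.

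The study used a migrant design with 4 groups of female pigs. TH were Tibetan pigs raised at 3500 m, and TL were Tibetan pigs of that population moved to 40 m at 1 month of age. DL were Duroc pigs raised at 40 m, and DH were Duroc pigs of that population moved to 3500 m at the same age. All animals were 6 months old at harvest, and 2 pigs per group, picked at random per the methods, gave 1 single-color Agilent array each. The piglets that started the experiment were unrelated, so that the 2 arrays of a group were separate animals. P-values below measure the spread between those animals' arrays, which was small (median SD of a member within a group 0.02 to 0.03 on the log2 scale, largest 0.15). All values are deposited log2 values, in which 1 unit is a 2-fold difference, and lung was taken whole, so that fewer cells of a type and less RNA per cell cannot be told apart.

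The TL arrays stood apart from the other 6. Their median raw signals were 324 and 333.5, against 207.5 to 230 on the others, and they had 31641 and 31723 probes above background, against 26466 to 29319. Arrays of the same group correlated at r = 0.981 to 0.994 and arrays of other groups at 0.961 to 0.967, but pairs with a TL array only at 0.918 to 0.941. TH and DL shared 1 slide and DH and TL, the groups that had been moved, the other. Slide, move and interaction therefore cannot be told apart. Lung markers were bright in every group: all 5 epithelial genes with a probe were above background on all 8 arrays, and their mean was between 15.88 and 16.35. The mean of 5 leukocyte genes was lower in TL (11.47 to 11.56) than in TH (13.39 to 13.41), DH (12.48 to 12.49) or DL (12.15 to 12.18), and 4 of the 5 were below all other arrays in TL. The mean of 4 genes of dividing cells was 13.53 to 13.73 at high altitude and 12.61 to 12.76 at low altitude. Muscle genes differed too: MYH2 was 10.44 to 10.51 at high and 9.18 to 9.74 at low altitude. CKM, MYH1 and TNNT3 had the same order, though TNNT3 was well above background on only 5 arrays. ACTA1 went the other way, lower at high altitude in each breed. For altitude 3 of the 5 passed, namely MYH2, CKM and ACTA1. Between breeds, the mean of 4 endothelial genes was 15.55 to 15.84 in Tibetan and 15.94 to 16.12 in Duroc pigs, 3 of the 4 passed, and HBB of red cells was 11.24 to 11.42 and 10.27 to 10.31. The part of these cells in the results below was not tested.

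As on the whole array, most of the splicing probes that passed did so in comparisons with the Tibetan pigs moved to low altitude. In the comparison of TL with DL, 37 of the 67 probes passed an FDR of 0.0001 (limma, Benjamini-Hochberg adjustment over all tested probes), 27 higher and 10 lower in TL, where 37.5% of all tested probes passed (16.0% higher and 21.5% lower). Between TH and TL, 40 probes passed, 14 higher and 26 lower in TH (37.1% of all, 20.5% higher and 16.6% lower). Where neither group was TL the counts were small: 3 of 67 passed between TH and DH (9.33% of all) and 9 between DH and DL (9.95%). Averaged over the other factor, 30 probes passed for breed, 24 higher and 6 lower in Tibetan pigs (27.4% of all, 12.8% higher and 14.6% lower), and 37 for altitude, 13 higher and 24 lower at high altitude (26.3% of all, 14.0% higher and 12.2% lower). The breed-by-altitude interaction, the altitude difference of Tibetan pigs less that of Duroc pigs, passed for 31 probes, 11 positive and 20 negative (28.4% of all, 14.9% positive and 13.5% negative). Both breed and interaction passed for 21 probes (31.3%, against 16.6% of all tested probes).

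How the probes got their names bears on these counts. Symbols for 15 of the 67 probes came only from tables that were ordered or chosen by p-values of these same arrays, and among those 93.3% passed for breed and 86.7% for the interaction. Of the other 52 probes, 9 passed for both breed and interaction (17.3%, against 16.6% of all tested probes). Counted singly, 16 passed for breed (30.8%), 26 for altitude and 18 for the interaction (34.6%). All 5473 tested probes with a symbol passed at 45.0%, 43.0% and 42.5%. Between TL and DL they passed at 51.9% and between TH and TL at 53.9%, near the 55.2% and 59.7% of the 67 members. The probes named in that way were both HNRNPH1, both HNRNPH3 and both RBM5 probes, LSM1, LSM3, LSM6, PRPF39, PRPF4B, RBM25, RBM48, SF3B6 and 1 RBM8A probe, and their passing is no evidence about splicing genes.

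In the deposited values the direction of the TL shift was unlike that of the array as a whole. Both TL arrays lay above all 6 others for 35 of the 67 probes (52.2%, against 26.6% of all tested probes) and below them for 16 (23.9%, against 36.9%). SRSF and HNRNP probes made up most of the former, with 14 of 19 and 7 of 15 above and 1 and 0 below, and all 4 SF3B1 probes were above. SNRP probes went the other way, 6 of 6 below. Part of this pattern rested on the scaling. Leaving out the dimmest probes, the slope of the deposited values on log2 processed signal was 1.11 and 1.109 on the TL arrays. On the other 6 arrays it was 0.959 to 0.977, with a median of 7.4 on every array. Fold differences with TL given below are in these deposited values, and the part of the slope in them was not tested. When each array's processed signal was scaled to its 75th percentile, SF3B1 stayed at 4 above and SNRP at 6 below, but SRSF fell to 7 above and 4 below, HNRNP turned to 6 above and 8 below, and the members together to 24 above and 31 below (26.7% and 41.1% of all probes). The raw signal, as it is called below, was the median spot signal after normal-exponential background correction and quantile normalization, so that signal, correction and normalization changed together, and it gave 34 above and 16 below. With scaling to the 75th percentile the split of passing probes for the interaction was 15 positive and 8 negative, for breed 18 higher and 16 lower, for altitude 19 and 15, for TH against TL 27 and 14, and for TL against DL 17 and 24. In that order these were 34.3%, 50.7%, 50.7%, 61.2% and 61.2% of the members. Of all tested probes 32.5%, 33.3%, 30.5%, 42.3% and 44.2% passed there, so that for the interaction the members lay near the array as a whole. The median interaction of all probes was 0.21 in the deposited values and 0.33 in the other scaling.

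**Figure D1:**
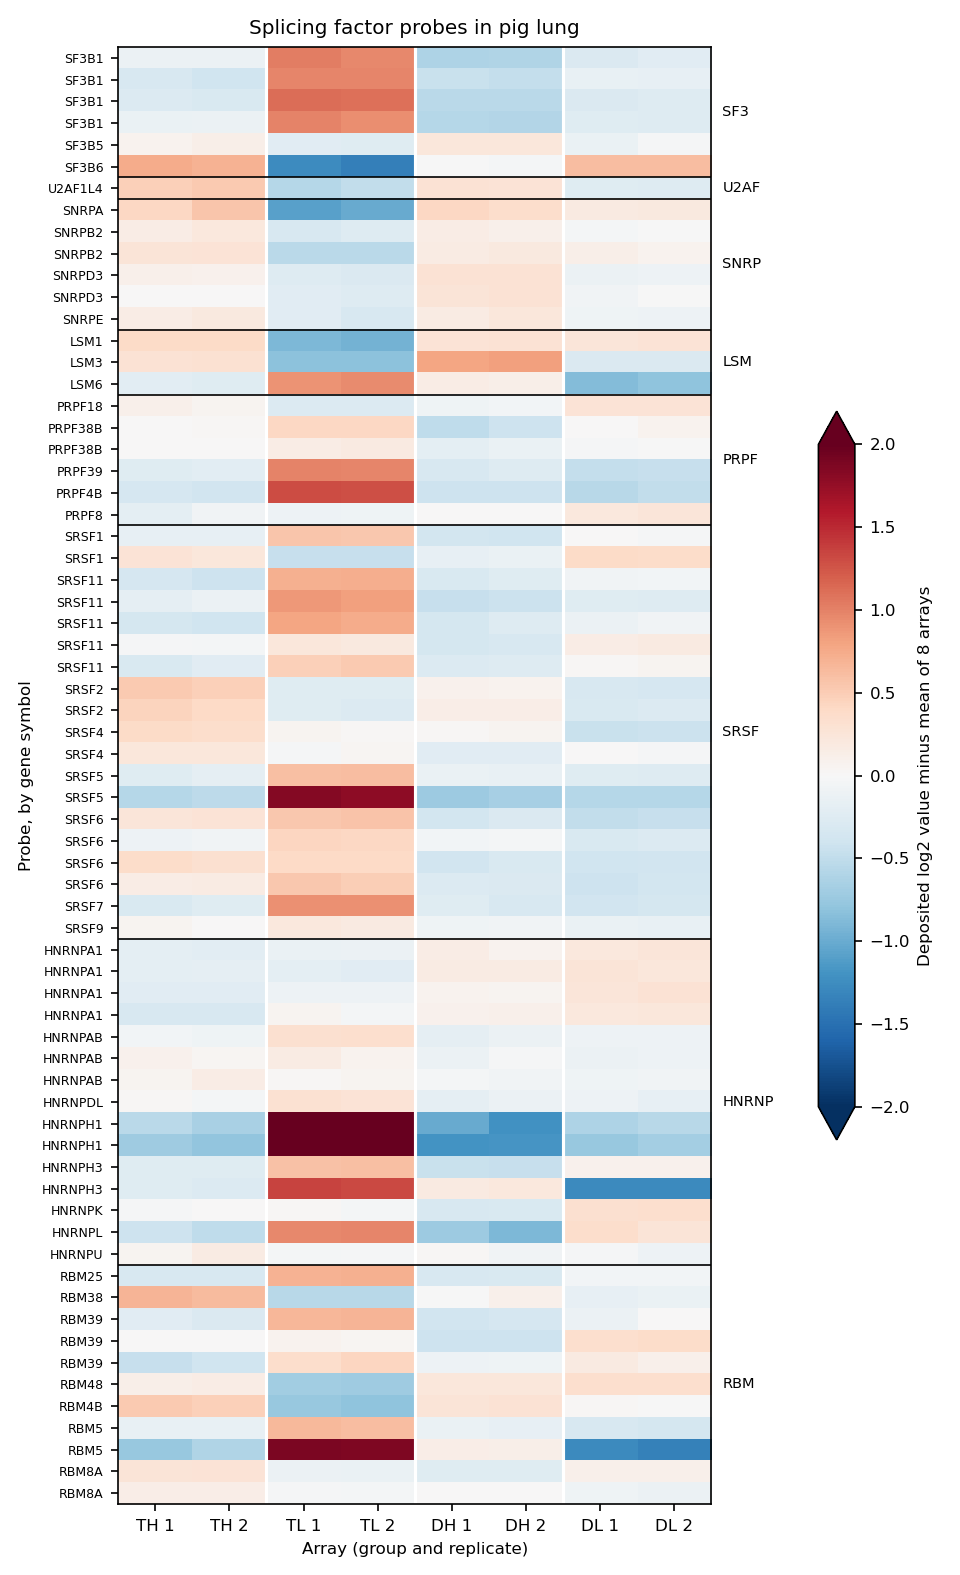
Each line of the map is 1 of the 67 probes, grouped by family, and each column 1 of the 8 arrays; color gives the deposited log2 value minus the mean of the 8 arrays, capped at ±2. The TL columns hold most of the strong colors, above the mean for SF3B1 and most SRSF probes and below it for the SNRP probes.

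**Figure D2:**
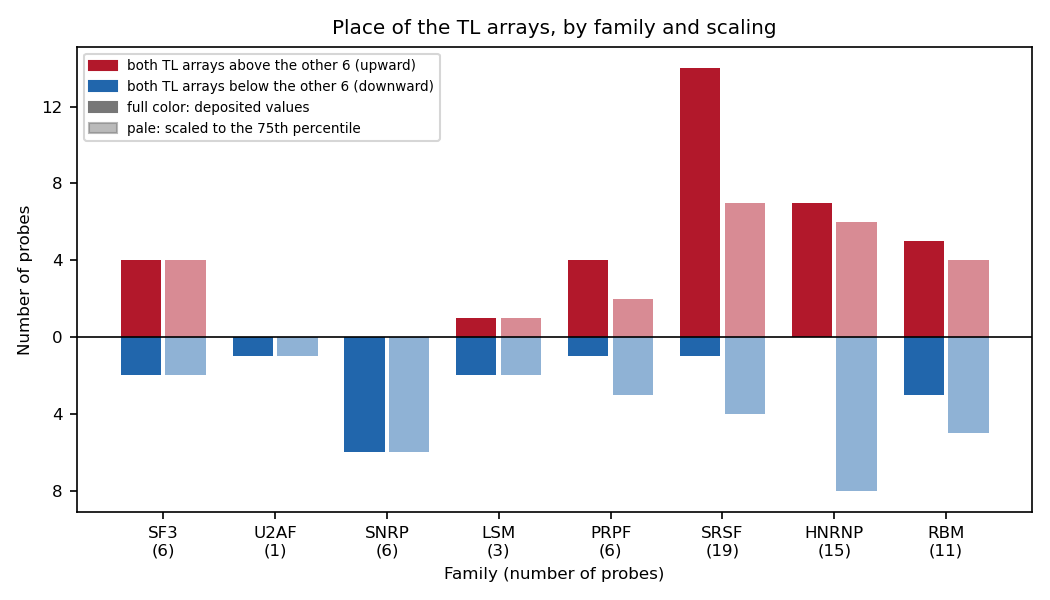
Bars give, for each family, the number of probes with both TL arrays above (up) or below (down) the 6 other arrays, in the deposited values and with scaling to the 75th percentile. SNRP stayed at 6 below in both, whereas HNRNP went from 7 above and 0 below to 6 above and 8 below.

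The U2 particle's SF3b complex held both directions. SF3B1, its largest subunit, which clamps the branch point, had 4 probes for 1 target transcript. Probe A_72_P340543 read 13.08 and 13.05 in TH, 14.47 and 14.46 in TL, 12.81 and 12.82 in DH, and 13.06 and 13.10 in DL. TL thus lay over 1 log2 unit above every other group, and TH, DH and DL lay close together. On A_72_P406433 the values were 13.96 and 13.98 in TH, 15.09 and 15.03 in TL, 13.53 and 13.51 in DH, and 13.85 and 13.84 in DL, on A_72_P006916 12.80 and 12.80, 13.94 and 13.88, 12.31 and 12.32, and 12.64 and 12.70, and on A_72_P135686 13.25 and 13.17, 14.55 and 14.54, 13.12 and 13.09, and 13.42 and 13.40. All 4 probes had TL on top and DH at the bottom, and on A_72_P006916 and A_72_P406433 both Tibetan groups lay above both Duroc groups.

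SF3B1 was 2.19 to 2.60-fold higher in TL than in DL (adjusted p = 1.19e-06 to 4.97e-06) and 2.12 to 2.64-fold lower in TH than in TL (1.24e-06 to 4.59e-06). At high altitude the breeds differed by 0.11 to 0.48 and the Duroc groups by -0.27 to -0.36, and none of these passed. The breed effect was 0.62 to 0.86 and passed on all 4 probes, and the altitude effect was -0.71 to -0.84 and also passed on all 4. The interaction was -0.76 to -1.13 (SE 0.04 to 0.05, adjusted p = 8.37e-06 to 7.67e-05) in the deposited values, but -0.09 to -0.47 with scaling to the 75th percentile, where it passed on 0 of 4 probes, while the altitude effect still passed on 4 (-0.34 to -0.53) and the breed effect on 3 (0.32 to 0.60).

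The small SF3b subunits did not follow SF3B1. SF3B6, which contacts the branch point adenosine, read 9.98 and 9.94 in TH, 7.98 and 7.88 in TL, 9.24 and 9.21 in DH, and 9.86 and 9.86 in DL. It was 3.80-fold lower in TL than in DL, and its interaction of 2.66 (SE 0.06, adjusted p = 2.92e-06) was the most positive of all members. The SF3B6 probe was named only by tables that depend on p-values of these arrays, which bears on this rank. SF3B5 read 15.76 and 15.81 in TH, 15.46 and 15.45 in TL, 15.91 and 15.91 in DH, and 15.56 and 15.66 in DL. High-altitude arrays lay above low-altitude arrays in both breeds for SF3B5, but its altitude effect of 0.31 did not pass (adjusted p = 4.27e-04).

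U2AF1L4, a relative of the small U2AF subunit that reads the 3′ splice site, was also higher at high altitude in both breeds. Its values were 14.25 and 14.29 in TH, 13.19 and 13.27 in TL, 14.06 and 14.04 in DH, and 13.53 and 13.51 in DL. The altitude effect was 0.78, or 1.72-fold (SE 0.03, adjusted p = 1.03e-05), and the interaction of 0.52 did not pass (4.42e-04). Between DH and DL alone the difference, also 0.52, did not pass.

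The proteins of the small nuclear ribonucleoproteins shared 1 pattern. In all 6 SNRP probes, for 4 genes, the 4 high-altitude arrays lay above the 4 low-altitude arrays, which was so for 14 of the 67 members and for 11.9% of all tested probes, and TL was the lowest group. The mean of the genes of dividing cells given above had the same order, as had TNNT3. MYH1, MYH2 and CKM also had high-altitude arrays above low-altitude arrays, but DL was their lowest group. The part of these genes in this pattern was not tested. The same 6 of 6 held with scaling to the 75th percentile (14.6% of all probes) and with the raw signal. SNRPA, which binds the U1 RNA, read 8.14 and 8.29 in TH, 6.64 and 6.72 in TL, 8.14 and 8.08 in DH, and 7.91 and 7.92 in DL. Its altitude effect was 0.87, or 1.82-fold (SE 0.04, adjusted p = 3.17e-05), most of it within Tibetan pigs, as the interaction of 1.34 shows (7.34e-05, not passing with scaling to the 75th percentile).

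SNRPB2, its relative in the U2 particle, had probes with a TL decrease of different size. A_72_P271829 read 12.53 and 12.54 in TH, 11.73 and 11.72 in TL, 12.43 and 12.46 in DH, and 12.38 and 12.34 in DL. The altitude effect there was 0.45 (adjusted p = 2.05e-05), the interaction 0.72 (3.81e-05), and neither passed with the raw signal. A_72_P177921 had smaller differences, an altitude effect of 0.31 (2.69e-04) and an interaction of 0.30 (0.00409), and neither passed.

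SNRPD3 and SNRPE belong to the Sm ring that encircles the small nuclear RNAs. SNRPD3 A_72_P104776 read 13.94 and 13.92 in TH, 13.58 and 13.55 in TL, 14.12 and 14.12 in DH, and 13.72 and 13.73 in DL, with nearly the same altitude difference in Tibetan (0.37) and Duroc pigs (0.39). Its altitude effect of 0.38 passed (adjusted p = 2.69e-05) and its interaction of -0.03 did not (0.528). The second SNRPD3 probe, A_72_P166716, had an altitude effect of 0.28 (1.52e-04) and SNRPE one of 0.36 (2.78e-04), both short of the threshold. Between DH and DL alone none of the 6 SNRP probes passed, with differences of 0.09 to 0.39. With scaling to the 75th percentile the altitude effect passed on all 6, from 0.58 to 0.77, and with the raw signal on SNRPA alone.

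The LSm genes, whose rings mark U6 RNA in the nucleus or start decapping of mRNA in the cytoplasm, each had a pattern of their own. LSM3, part of both rings, read 12.30 and 12.31 in TH, 11.19 and 11.18 in TL, 12.80 and 12.82 in DH, and 11.72 and 11.72 in DL. High altitude was above low in both breeds by almost the same amount, 1.12 in Tibetan and 1.09 in Duroc pigs, and Duroc was above Tibetan at both altitudes. The altitude effect of 1.10 (2.15-fold, adjusted p = 2.72e-06) was the highest of the members, TH against DH (-0.50, 6.04e-05) and DH against DL (1.09, 1.50e-05) both passed, and the interaction was 0.03 (0.379). All 3 LSM probes were named only by tables that depend on p-values of these arrays, which bears on their passing and rank.

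LSM1, found only in the decapping ring, was low in TL alone, with 11.43 and 11.43 in TH, 10.14 and 10.09 in TL, 11.31 and 11.33 in DH, and 11.28 and 11.32 in DL. That is 2.27-fold lower in TL than in DL, with an interaction of 1.29 (SE 0.04, adjusted p = 8.76e-06). LSM6, in both rings, read 10.41 and 10.38 in TH, 11.51 and 11.56 in TL, 10.77 and 10.74 in DH, and 9.75 and 9.82 in DL. Here the groups that had been moved, TL and DH, were the higher ones. They also shared a slide, so that move and slide cannot be told apart. The interaction was -2.12 (3.72e-06), with DH above DL by 0.97 (3.97e-05).

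**Figure D3:**
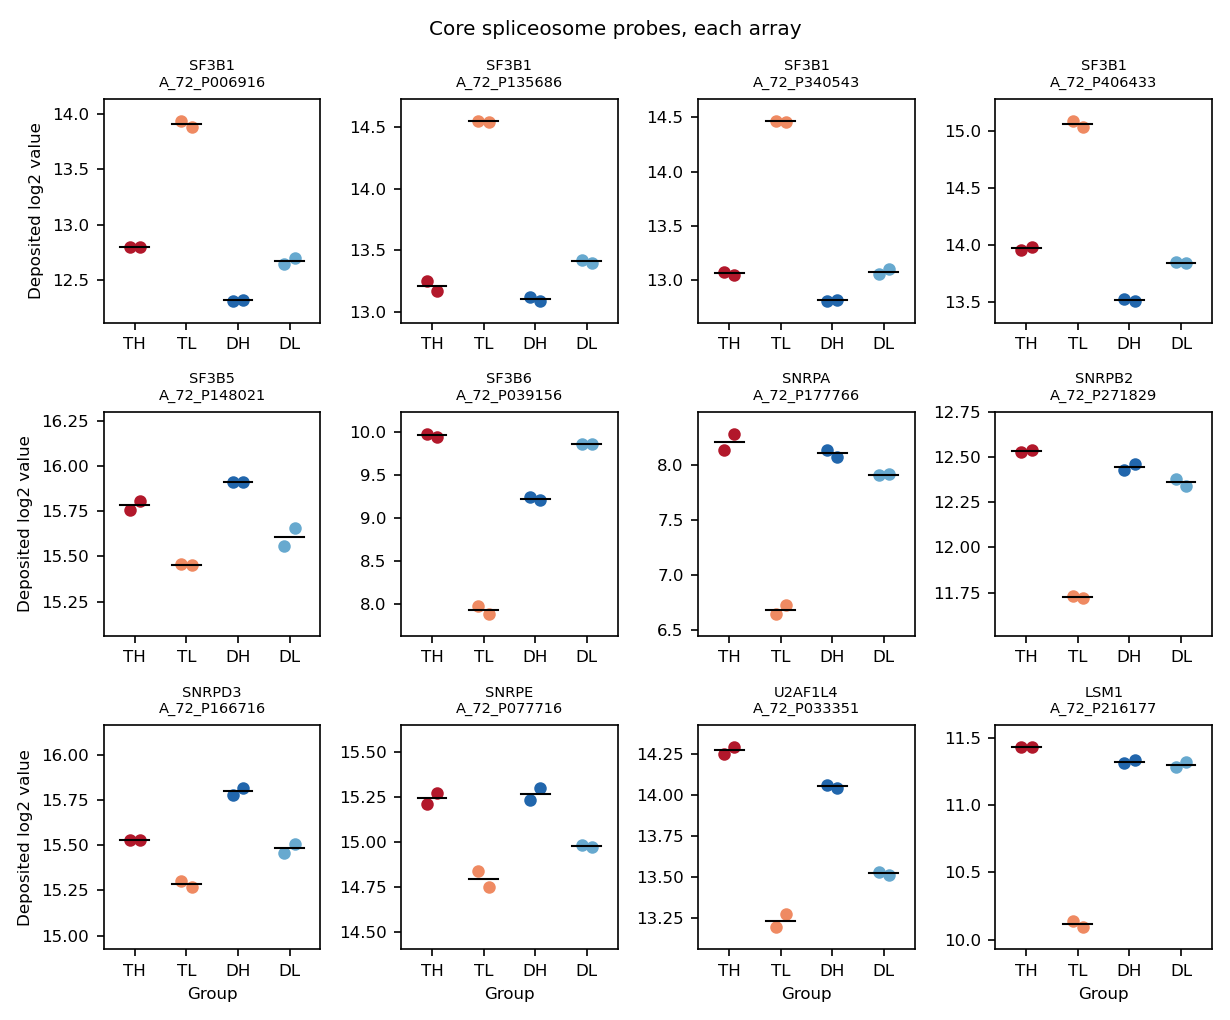
Points are single arrays and lines group means (deposited log2 value) for 12 probes of the spliceosome core in TH, TL, DH and DL. SF3B1 was 2.19 to 2.60-fold higher in TL than in DL, SF3B6, SNRPA and LSM1 were lowest in TL, and both high-altitude groups lay above both low-altitude groups for SNRPB2, SNRPD3, SNRPE, SF3B5 and U2AF1L4.

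Among the PRPF genes, 2 had high values in TL only. PRPF4B, a kinase that phosphorylates tri-snRNP proteins, read 12.93 and 12.89 in TH, 14.57 and 14.55 in TL, 12.85 and 12.85 in DH, and 12.71 and 12.78 in DL. PRPF39, a U1-associated protein, read 12.18 and 12.21 in TH, 13.41 and 13.39 in TL, 12.10 and 12.16 in DH, and 11.95 and 11.96 in DL. They were 3.53-fold and 2.73-fold higher in TL than in DL, with interactions of -1.76 (adjusted p = 4.45e-06) and -1.39 (7.93e-06).

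PRPF8, the scaffold of the catalytic center, was nearly level, from 15.53 and 15.65 in TH to 15.93 and 15.96 in DL, with 15.62 and 15.64 in TL and 15.73 and 15.73 in DH. Its 4 Tibetan arrays lay below its 4 Duroc arrays, but the breed effect of -0.23 did not pass (adjusted p = 0.00162). PRPF18, a factor of the second catalytic step, was lowest in TL (11.25 and 11.25, against 11.80 and 11.80 in DL) with an interaction of 0.69 (4.49e-05, not passing with the raw signal). The PRPF38B probes had breed effects of 0.43 and 0.17 and altitude effects of -0.45 and -0.15, none of which passed.

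SR proteins gave the largest family, and 10 of its 19 probes were higher in Tibetan pigs by the breed effect with none lower, where 12.8% of all tested probes were higher and 14.6% lower. These were 6 and none with scaling to the 75th percentile (14.0% and 19.3% of all), and with the raw signal also 6 and none (10.6% and 8.98%). Between TL and DL 13 of the 19 passed (37.5% of all tested probes), 12 of them higher in TL. Between TH and DH only 1 passed (9.33% of all). Among the 10 were all 4 SRSF6 probes and both SRSF5 probes, so that they stand for fewer genes. SRSF6, an exon-binding SR protein, had higher values in Tibetan pigs at both altitudes on 3 of its 4 probes. Probe A_72_P184661 read 11.88 and 11.83 in TH, 11.91 and 11.91 in TL, 11.12 and 11.20 in DH, and 11.11 and 11.12 in DL. Both Tibetan groups were high and both Duroc groups low, by 0.69 at high altitude (adjusted p = 9.87e-05) and 0.79 at low altitude (1.97e-05). Probe A_72_P088546 read 13.36 and 13.40 in TH, 13.66 and 13.69 in TL, 12.75 and 12.84 in DH, and 12.64 and 12.66 in DL, and A_72_P355068 read 13.38 and 13.39, 13.76 and 13.72, 12.96 and 12.94, and 12.81 and 12.86. On these 3 RefSeq-target probes all 4 Tibetan arrays lay above all 4 Duroc arrays, which in the deposited values was so for 14 members and for 7.39% of all probes. Under each of the 3 scalings it was so for 8 members, these 3 among them. At high altitude alone A_72_P088546 (0.59, adjusted p = 2.05e-04) and A_72_P355068 (0.44, 1.86e-04) did not pass.

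SRSF6 breed effects were 1.59 to 1.75-fold on those 3 probes (adjusted p = 7.19e-06 to 1.10e-05), and they passed under all 3 scalings. HBB had the same breed order and the endothelial mean the opposite one, and their part was not tested. Within the slide of TH and DL the Tibetan arrays were higher by 0.55 to 0.73, and within that of TL and DH by 0.75 to 0.88. The fourth probe, A_72_P089391, has another target and differed. It read 12.82 and 12.86 in TH, 13.35 and 13.34 in TL, 12.88 and 12.89 in DH, and 12.63 and 12.65 in DL. TH and DH were level there, the breed effect was 0.33 (4.36e-05), and it did not pass with scaling to the 75th percentile (0.09) or with the raw signal (0.32).

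SRSF5, a regulator of exon inclusion, had the strongest TL excess of the SR genes. Its RefSeq-target probe A_72_P343078 read 12.18 and 12.22 in TH, 14.58 and 14.53 in TL, 12.01 and 12.08 in DH, and 12.17 and 12.18 in DL. It was 5.22-fold higher in TL than in DL and the other 3 groups lay between 12.01 and 12.22, with an interaction of -2.23 (SE 0.05, adjusted p = 3.12e-06). A_72_P261192, with another target, read 12.11 and 12.17 in TH, 12.96 and 12.97 in TL, 12.23 and 12.21 in DH, and 12.11 and 12.10 in DL, so 1.81-fold higher in TL than in DL. Its interaction was -0.94 (2.05e-05), and -0.49 without passing after scaling to the 75th percentile.

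SRSF1, the founding SR protein, gave opposite results on its probes, both aimed at 1 RefSeq transcript. A_72_P303014 read 14.60 and 14.60 in TH, 15.31 and 15.30 in TL, 14.39 and 14.36 in DH, and 14.76 and 14.73 in DL. A_72_P307588 read 9.57 and 9.52 in TH, 8.83 and 8.83 in TL, 9.13 and 9.16 in DH, and 9.68 and 9.66 in DL. TL was the highest group on the former and the lowest on the latter, so that TL was above DL by 0.56 (adjusted p = 1.57e-05) on one probe and below it by -0.84 (5.11e-06) on the other. The interactions were -0.34 (4.97e-04) and 1.24 (6.53e-06). TL minus DL with scaling to the 75th percentile was -0.12 on A_72_P303014, without passing, and -0.47 on A_72_P307588, so that the opposite direction rested on the scaling.

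SRSF11, an SR-related protein, had 5 RefSeq-target probes that were all lower at high altitude, by 0.36 to 0.67 (adjusted p = 1.85e-05 to 3.53e-05). On 4 of them every high-altitude array lay below every low-altitude array, which was so for 12 members and for 9.09% of all probes. With scaling to the 75th percentile the altitude effect passed on 1 of the 5. SRSF2, which also acts in transcription elongation, went the other way. Probe A_72_P101856 read 12.18 and 12.13 in TH, 11.42 and 11.42 in TL, 11.74 and 11.73 in DH, and 11.34 and 11.33 in DL, and the second SRSF2 probe had the same order. High-altitude arrays lay above low-altitude arrays on both probes, by 0.57 and 0.56 (9.89e-06 and 1.04e-05).

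SRSF7, whose protein also has a zinc knuckle, read 13.03 and 13.09 in TH, 14.24 and 14.24 in TL, 13.09 and 13.00 in DH, and 12.95 and 12.98 in DL, 2.42-fold higher in TL than in DL (interaction -1.26, adjusted p = 2.29e-05, and -0.62 without passing after scaling to the 75th percentile). The SRSF4 probes differed from each other. A_72_P088496 passed for breed (0.41) and altitude (0.40), and A_72_P155386 for neither (0.23 and 0.00). SRSF9 passed in no comparison, with a breed effect of 0.22.

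**Figure D4:**
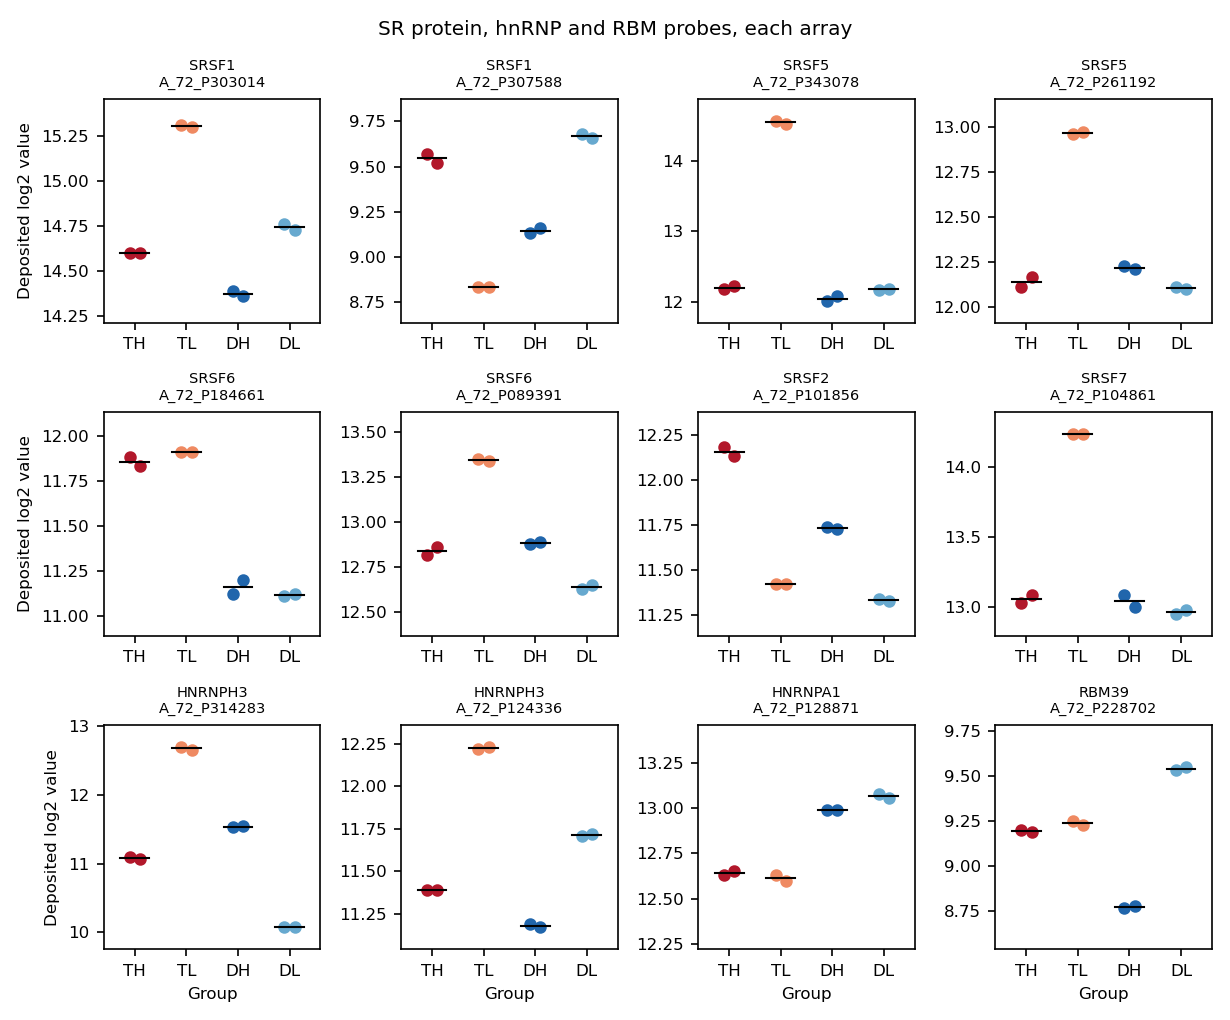
Points are single arrays and lines group means (deposited log2 value) for 12 probes of SR proteins, hnRNPs and RBM39. SRSF6 A_72_P184661 was high in both Tibetan groups, SRSF5 A_72_P343078 was 5.22-fold higher in TL than in DL, and the SRSF1 probes moved in opposite directions in TL in these values, though not with scaling to the 75th percentile.

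HNRNPA1, a repressor of exons that packages nascent RNA, was lower in Tibetan pigs at both altitudes. Probe A_72_P128871 read 12.63 and 12.65 in TH, 12.63 and 12.60 in TL, 12.99 and 12.99 in DH, and 13.08 and 13.06 in DL. Tibetan arrays were low and Duroc arrays high at both altitudes. On all 4 HNRNPA1 probes, which share 1 target, the 4 Tibetan arrays lay below the 4 Duroc arrays under each of the 3 scalings, as 6 members and 14.4% of all probes did in the deposited values. Breed effects were -0.31 to -0.40, and 2 passed (adjusted p = 2.35e-05 and 6.25e-05) while 2 did not (1.02e-04 and 1.86e-04). With scaling to the 75th percentile they were -0.53 to -0.62 and all 4 passed, and with the raw signal none did. The endothelial mean had the same breed order and HBB the opposite one, and their part was not tested. Probe sequences were not analyzed here, so that signal from near-identical copies of HNRNPA1 was not assessed.

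HNRNPH1 and HNRNPH3 bind G-rich runs. HNRNPH1 A_72_P300489 read 5.74 and 5.65 in TH, 9.11 and 9.10 in TL, 5.25 and 5.27 in DH, and 5.68 and 5.76 in DL. It was not well above background on any DH array and on 1 of 2 DL arrays, and TL was at least 11.2-fold higher than DH. A_72_P006451 read 6.25 and 6.15 in TH, 9.03 and 9.13 in TL, 5.79 and 5.58 in DH, and 6.18 and 6.24 in DL, 7.34-fold higher in TL than in DL. TL stood alone on both, and the interaction on A_72_P006451 was -2.36 (adjusted p = 3.93e-05). The fitted interaction on A_72_P300489, -2.96 (2.47e-06), includes the DH value, for which there is only a bound.

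HNRNPH3 had a second pattern. A_72_P314283 read 11.10 and 11.07 in TH, 12.70 and 12.66 in TL, 11.53 and 11.55 in DH, and 10.07 and 10.07 in DL. As for LSM6, the moved groups were higher than the unmoved groups of their breed, with TL 6.09-fold above DL, DH above DL by 1.47 (adjusted p = 1.41e-05) and an interaction of -3.05 (9.71e-07). On A_72_P124336, with another target, both breeds were lower at high altitude, by 0.84 in Tibetan and 0.53 in Duroc pigs, and the interaction of -0.31 did not pass (5.36e-04).

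HNRNPL, which binds CA repeats, read 7.86 and 7.77 in TH, 9.23 and 9.25 in TL, 7.54 and 7.37 in DH, and 8.62 and 8.53 in DL, and was lower at high altitude in both breeds (altitude effect -1.27, or 2.42-fold, adjusted p = 1.63e-05). Within Tibetan pigs the difference of -1.43 passed (2.36e-05), and within Duroc pigs that of -1.12 did not (1.49e-04). HNRNPK, which binds C-rich runs, read 8.90 and 8.93 in TH, 8.94 and 8.88 in TL, 8.59 and 8.61 in DH, and 9.23 and 9.26 in DL, so that DH was below DL (-0.64, 7.81e-05, not passing with the raw signal) and the Tibetan groups were level. HNRNPAB (3 probes, of which 2 have a RefSeq target), HNRNPDL and HNRNPU passed in no comparison in the deposited values. Passing between TH and TL with scaling to the 75th percentile were 2 HNRNPAB probes and HNRNPU, and there on these and HNRNPDL all high-altitude arrays lay above all low-altitude arrays. In the deposited values HNRNPAB had breed effects of 0.14 to 0.26 and all its Tibetan arrays above all Duroc arrays on each probe, though on none with scaling to the 75th percentile, and HNRNPU lay between 15.21 and 15.48 on the 8 arrays.

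RBM5, a regulator of exon choice in cell death genes, had the most negative fitted interaction of the members. Both RBM5 probes were named only by tables that depend on p-values of these arrays, which bears on this rank. A_72_P234132 read 6.06 and 6.21 in TH, 8.70 and 8.68 in TL, 6.95 and 6.93 in DH, and 5.54 and 5.47 in DL. It was not well above background on either DL array, so TL was at least 8.01-fold and DH at least 2.38-fold higher than DL, and the fitted interaction of -3.99 (adjusted p = 2.39e-06) includes DL, for which there is only a bound. The moved groups, which shared a slide, were again higher than the unmoved ones. On A_72_P204657, for another target, 14.60 and 14.60 in TH, 15.39 and 15.36 in TL, 14.62 and 14.59 in DH, and 14.43 and 14.40 in DL gave an interaction of -0.96 (1.31e-05), which did not pass with scaling to the 75th percentile (-0.33).

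Several RBM genes had their lowest values in TL. RBM38, which binds AU-rich elements, read 14.57 and 14.53 in TH, 13.33 and 13.34 in TL, 13.88 and 14.00 in DH, and 13.72 and 13.76 in DL. RBM4B, a relative of the splicing regulator RBM4, read 12.95 and 12.91 in TH, 11.67 and 11.63 in TL, 12.69 and 12.73 in DH, and 12.46 and 12.43 in DL. Both had high-altitude arrays above low-altitude arrays, with altitude effects of 0.71 (adjusted p = 3.12e-05) and 0.77 (8.19e-06) and interactions of 1.01 (9.69e-05, not passing with the raw signal) and 1.00 (2.56e-05). RBM48, of the minor spliceosome, had a mean of 9.01 over the TH arrays and read 8.19 and 8.16 in TL, 9.11 and 9.11 in DH, and 9.22 and 9.22 in DL, 2.06-fold lower in TL than in DL (interaction 0.94, 1.02e-05).

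RBM39, a coactivator and splicing factor, was lower at high altitude on each of its 3 probes, by 0.40 to 0.62, all passing (1 of 3 with scaling to the 75th percentile and 1 of 3 with the raw signal), while the probes differed in where the difference lay. A_72_P228702, with another target than RefSeq, read 9.20 and 9.19 in TH, 9.25 and 9.23 in TL, 8.77 and 8.78 in DH, and 9.53 and 9.55 in DL, so that the difference lay between DH and DL (-0.76, adjusted p = 2.57e-05) and hardly between TH and TL (-0.04), with an interaction of 0.72 (2.49e-05). On A_72_P197047 and A_72_P395933 TH minus TL was -0.94 and -0.82, both passing, and DH minus DL -0.31 and -0.23, neither passing. The RefSeq-target probe A_72_P395933 had 12.60 and 12.67 in TH, 13.42 and 13.49 in TL, 12.96 and 12.98 in DH, and 13.24 and 13.17 in DL, and an interaction of -0.59 that did not pass (6.26e-04). RBM25, an SR-related regulator, was 1.69-fold higher in TL than in DL (interaction -0.76, 1.53e-05, not passing under the other scalings).

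RBM8A, or Y14 of the exon junction complex, had 1 probe in which TH and DH differed. A_72_P097246 read 13.03 and 13.04 in TH, 12.65 and 12.63 in TL, 12.53 and 12.52 in DH, and 12.86 and 12.86 in DL, with TH above DH by 0.51 (adjusted p = 5.19e-05) and an interaction of 0.74 (1.88e-05), neither of which passed with the raw signal. The groups in their native altitude, TH and DL, were the higher ones, and they also shared a slide. The brighter RBM8A probe, A_72_P120591, passed in no comparison in the deposited values (interaction 0.06), but had a passing interaction of 0.70 with scaling to the 75th percentile.

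Counts for RefSeq-target members and the others are given as a description, and their difference was not tested. For breed, 9 of 30 RefSeq-target probes (30.0%) and 21 of 37 others (56.8%) passed, beside 28.5% and 27.3% of all tested probes of each kind. For altitude these were 15 of 30 and 22 of 37 (59.5%), beside 35.3% and 25.4%, and for the interaction 9 (30.0%) and 22 (59.5%), beside 27.7% and 28.5%. All 15 probes named only by tables that depend on p-values are among the 37 others. The median interaction was 0.02 over RefSeq-target members and -0.30 over the others, against 0.37 and 0.19 over all probes of each kind. Both TL arrays lay above the 6 others for 14 of the 30 (46.7%) and below for 7 (23.3%), while among all RefSeq-target probes 13.7% were above and 47.0% below. This turned over with scaling to the 75th percentile, to 5 of 30 above (16.7%) and 15 below, against 8.22% and 61.7% of all RefSeq-target probes. Of the 4 genes with probes of both kinds, SRSF5 had the same direction in TL on both, HNRNPAB passed on none, and SRSF6 and RBM39 differed between probes as described above.

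Breed differences at low and at high altitude, which share no array, had the same sign for 43 of the 67 probes (64.2%, against 45.7% of all tested probes), and altitude differences in the breeds for 45 (67.2%, against 44.7%). Several probes of 1 gene count separately here. The sizes hardly went together: over the members r was -0.08 for breed and 0.09 for altitude (Spearman's rho 0.05 and 0.27). Over all tested probes r was -0.1 and -0.21. At low altitude the median size of a member's breed difference was 0.55 and at high altitude 0.22, against 0.78 and 0.35 over all probes. Within the slide of TH and DL the median size of a member's difference between those groups was 0.21 (0.39 over all probes), and within that of DH and TL it was 0.75 (0.68). For SF3B1 these were -0.20 to 0.13 and 1.43 to 1.65.

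**Figure D5:**
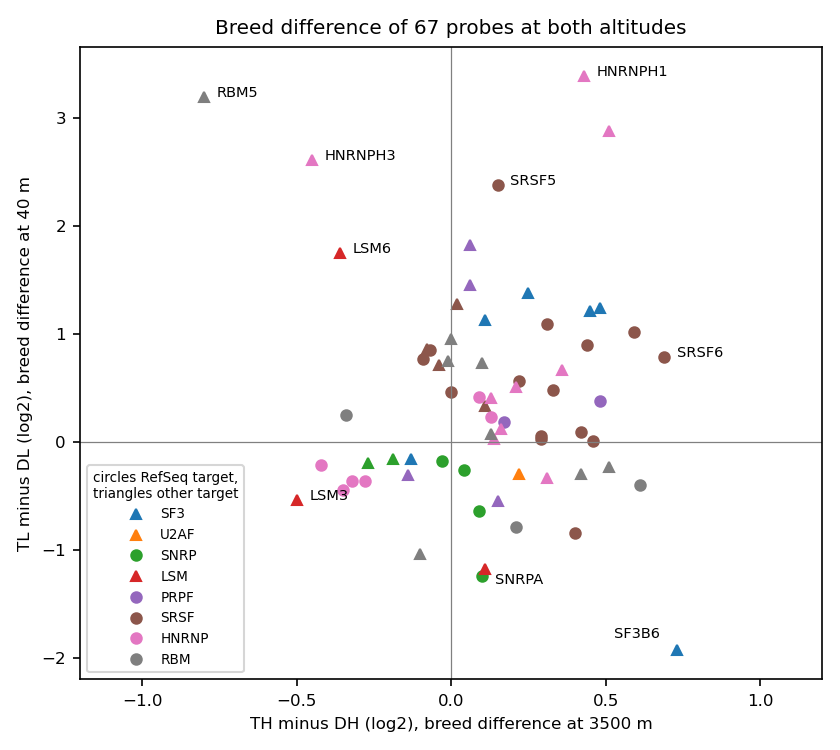
Each point is 1 of the 67 probes, with TH minus DH on the horizontal and TL minus DL on the vertical axis (differences of deposited log2 values); circles have a RefSeq target and triangles another. Most points spread further along the vertical axis, and 43 of 67 have the same sign on both.

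Of 97 other genes that act in splicing or bind RNA, 36 had a named probe, 54 probes in all. For the interaction 27 of the 54 passed, 9 positive and 18 negative, against 28.4% of all tested probes and 42.5% of those with a symbol. Without the probes named only by tables that depend on p-values 18 of 44 passed (40.9%), 9 each way. Among these were SRPK3, a muscle-type SR protein kinase (1.05, adjusted p = 1.06e-05), PTBP1, a repressor of exons (1.31, 1.22e-05), and TRA2A (-1.08, 5.49e-05) and TRA2B (-0.55, 6.58e-05), which enhance exon inclusion. Probes of 1 gene also disagreed here. CDC5L, a core spliceosome protein, had probes at 2.11, -2.53 and 0.61, and DHX9, an RNA helicase, at -2.61 and 0.42. For breed 25 of the 54 passed (46.3%, against 27.4% of all and 45.0% with a symbol), 14 higher and 11 lower in Tibetan pigs. For altitude 25 also passed (46.3%, against 26.3% and 43.0%), 10 higher and 15 lower at high altitude, so that the shares lay near those of all probes with a symbol.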

How the data were processed

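Lung RNA of 8 pigs, 2 in each of 4 groups taken from the labels, was hybridized to single-color Agilent arrays. Scanning and spot extraction were done by the authors with Agilent Feature Extraction (version 10.7.3.1 per the file headers), and the deposited scanner files hold the raw spot intensity (median signal and local background), a processed intensity that the software had background subtracted and detrended, and flags. Besides these, log2 values were deposited by the authors as 1 table, RMA normalized according to the methods. Its columns share a median of 7.40 and keep the order of the processed intensity (Spearman's rho at least 0.999996), so it appears to start from the latter, and the exact steps stay unknown. These log2 values were used here.

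Of 43603 non-control probes, 34406 were well above background on 1 or more arrays and 24775 on all 8. No spot was saturated. Group means were fitted in R 4.3.3 by limma 3.58.1, whose moderated variances borrow from all probes, contrasts were adjusted by Benjamini-Hochberg over the 34406 probes, and an FDR below 0.0001 was required, as in the methods. A probe not well above background on any array of a group has only a bound there: the bright group's mean was set against, per dim array, the higher of its lowest signal above background and the probe's own. Tables and figures used Python 3.11.15, numpy 2.4.6, pandas 2.3.3 and matplotlib 3.10.9. The fit was tested on simulated data.

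Symbols came from partly held supplementary tables of the paper, and by looking up RefSeq accessions that the array files give (2683 of 3250 found). The sources overlapped in 660 probes and gave 98.0% of these the same symbol. Of the members, 29 were named by accession, 23 by a table of transcriptional regulators ordered by a score computed from these arrays, and 15 only by tables ordered or chosen by p-values. Members and lists were chosen with earlier results of these data known. Named with values were all SF3B1 probes, the 8 largest interactions and the 5 largest breed and altitude effects in each direction among passing probes, the 2 brightest genes of each family, genes with both kinds of target, and members passing between TH and DH or DH and DL. The remaining members were described after their values were seen, so that each of the 39 genes is accounted for.

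Replicate numbers do not pair the animals, as arrays with the same number did not deviate together (r = -0.043 to 0.091 across probes). Alternatives were 3 other ways to make the values (the processed signal scaled to each array's 75th percentile, and the median spot signal after normal-exponential correction, without local background or with it at an offset of 50, then quantile normalized), 3 filters, 2 variance models, an FDR of 0.05, a replicate block, leaving out each array, naming by 1 source and the brightest probe per gene. Breed and altitude effects with slide as a block equal those without it by construction.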

Additional observations from a re-analysis of the deposited data

Results flagged for a closer look

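For 31 member probes the altitude difference in Tibetan pigs departed from that in Duroc pigs by limma's interaction test at an adjusted p below 0.0001. The values below are interactions on the log2 scale, the former difference less the latter. As slide is the same contrast, slide and interaction cannot be told apart. Probes named only by tables that depend on p-values of these arrays had to pass in most cases: RBM5 (-3.99 and -0.96), HNRNPH3 (-3.05), HNRNPH1 (-2.96 and -2.36), SF3B6 (2.66), LSM6 (-2.12), PRPF4B (-1.76), PRPF39 (-1.39), LSM1 (1.29), RBM48 (0.94), RBM25 (-0.76) and RBM8A (0.74). The values of -3.99 for RBM5 and -2.96 for HNRNPH1 are fitted ones that include a group not well above background on either array.

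The other probes were SRSF5 (-2.23 and -0.94), SNRPA (1.34), SRSF7 (-1.26), SRSF1 (1.24), SF3B1 (-1.13, -1.02, -0.76 and -0.76), RBM38 (1.01), RBM4B (1.00), SRSF11 (-0.92, -0.87 and -0.79), SRSF6 (-0.75), SNRPB2 (0.72), RBM39 (0.72) and PRPF18 (0.69). With scaling to the 75th percentile, 17 of the 31 still passed, and with the raw signal after normal-exponential correction and quantile normalization 19.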

How the results depend on the processing

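Shares of the 67 members that passed moved with several choices. An FDR of 0.05 gave 94.0% for breed, 85.1% for altitude, 76.1% for the interaction, 71.6% for both breed and interaction, 71.6% for TH against DH, 92.5% for TL against DL and 86.6% for DH against DL. Shares over all tested probes at that FDR are not given here, so these are no result about splicing genes. An intensity trend in the variances gave 77.6% for breed, 50.7% for both, 37.3% for TH against DH and 38.8% for DH against DL. Of all tested probes 38.3%, 25.6%, 20.7% and 22.8% passed there. Without moderation, 19.4% passed for both and 8.96% for DH against DL (9.27% and 2.7% of all). The raw signal, with normal-exponential correction and quantile normalization, gave 28.4% for the interaction, 1.49% for TH against DH and 2.99% for DH against DL. Of all probes 21.2%, 4.46% and 3.16% passed with it. TH against DH passed at 8.96% with scaling to the 75th percentile (10.4% of all). With the spot signal corrected for local background by the normal-exponential method at an offset of 50 and quantile normalized it was 11.9% (11.3% of all). Detection on both arrays of 1 group gave 10.4% (12.9% of all). Detection on all 8 gave 26.6% (25.0% of all), and 29.7% for DH against DL (27.5%). No filter gave 0% (5.35% of all), and 7.46% for DH against DL (5.37%). The brightest probes gave 2.56%. By naming, members named by RefSeq accession passed at 6.90% for both and 6.90% for DH against DL, those named by the regulator table at 0% for TH against DH (19 of 23 at an unadjusted p under 0.05) and 8.70% for DH against DL, and those named only by tables that depend on p-values at 93.3% for breed, 86.7% for the interaction, 80.0% for both, 13.3% for TH against DH, 93.3% for TL against DL, 100% for TH against TL and 33.3% for DH against DL. Without the latter, a setting chosen after the data were seen, 17.3% passed for both, 1.92% for TH against DH and 7.69% for DH against DL.

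These shares also moved with a replicate block and with the arrays used. The shares of all tested probes fell as well with the block and with each array left out. The lower member shares there are therefore no result about splicing genes. With a replicate block, although the numbers do not pair the animals, 19.4% passed for breed, 14.9% for altitude, 14.9% for the interaction, 7.46% for both, 35.8% for TL against DL and 0% for TH against DH and DH against DL. Leaving out 1 array gave 8.96% to 19.4% for breed, 4.48% to 11.9% for altitude, 8.96% to 13.4% for the interaction, 4.48% to 7.46% for both, 20.9% to 46.3% for TL against DL, 23.9% to 50.7% for TH against TL, and 0% for TH against DH and DH against DL. Each of the 8 arrays lowered the breed, altitude and interaction counts by over 1.5 times, and the counts were lowest without a TL array. Without both TL arrays, also chosen after the data were seen, 0% passed for TH against DH and for DH against DL (0.663% and 0% of all). Where limma passed 0 members for TH against DH, 53 of 67 without a filter, 50 with the block and 49 without both TL arrays had an unadjusted p under 0.05. For DH against DL these were 57 with the block and 58 without both TL arrays. Shares of all tested probes under that unadjusted p are not given here. Neither these counts nor the 19 of 23 regulator table probes above are therefore a result about splicing genes. The test without moderation on all 8 arrays passed 2.99% for TH against DH and 8.96% for DH against DL (3.46% and 2.7% of all).

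Of the 98 member effects past the threshold for breed, altitude or interaction, 64 passed with scaling to the 75th percentile and 64 with the raw signal, 33 with the replicate block and 15 to 30 without 1 array. With the 75th percentile the altitude effect of RBM5 A_72_P204657 was 0.11, of opposite sign. The cause of these shifts was not tested. Naming by the platform's annotation was not run, as that table was not used here.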
